A study of Mus musculus with 121 samples.

Results

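The comparison is between the prefrontal cortex (PFC) of male mice with both Gdnf alleles of the conditional cHyper kind (HOM) and of wild-type littermates (WT), after AAV-Cre had been injected into the striatum of both groups. Libraries were taken by their labels, which gave 8 HOM and 7 WT mice, 15 of the 121 libraries of the series. The 7 heterozygous (HET) PFC libraries of the experiment entered the same fit, so that 22 libraries set the spread between mice. The study asked how a rise of endogenous GDNF in the adult striatum bears on gene expression in the cortex. All mice are labelled GDNF cKU + AAV-Cre on a mixed background of 129Ola/ICR/C57bl6, injected when 3 to 5 months old and sampled when 5 to 7 months old. The controls thus carried the virus and the surgery too, but no allele for Cre to act on. Cre was delivered to the striatum on both sides and not to the cortex, and its spread was not measured in these libraries. Cre exchanges the 3' untranslated region of the allele for another end, so reads from that region can be lost from the count of a recombined transcript.

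GDNF is a secreted neurotrophic factor that binds the co-receptor GFRA1 and signals through the receptor tyrosine kinase RET. In the adult striatum it is made mainly by parvalbumin interneurons, and the dopamine neurons of the midbrain that project there carry its receptors. The PFC is reached by dopamine fibres of its own, and most of its neurons are glutamatergic projection neurons.

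Values are in cpm, the reads of a gene scaled to the same total by the sum over all genes of the library. That sum lay between 11217046 and 17732744 in the WT libraries (median 15765525), between 9869584 and 17885830 in HET (median 14999790) and between 10178046 and 18837153 in HOM (median 13456979). A gene was tested if 3 or more of the 22 libraries reached 1 cpm, which held for 14628 of the 24412 in the table. Gene expression was called changed at a Benjamini-Hochberg adjusted p under 0.1 in edgeR's quasi-likelihood test, two-sided, adjusted over all genes tested. Log2 fold changes are HOM against WT, with a standard error (SE). Gene positions are those of GRCm38 (mm10), with Entrez identifiers.

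Gdnf (Entrez 14573, chr15:7810048-7837580) was close to the lowest level that could be tested. It ran from 0.294 to 1.15 cpm in WT (median 1.02) and from 0.352 to 1.54 cpm in HOM (median 0.71), and its median in HET was 1.19 cpm. The groups overlapped throughout, with mouse M3578 lowest in WT, mouse M3687 lowest in HOM and mouse M3611 highest in HOM. The log2 fold change of Gdnf was 0.12 (SE 0.373), with 3 of 8 HOM mice above the WT mean and an edgeR adjusted p of 0.912 (0.812 to 0.998 over 25 alternatives). Its direction turned without mouse M3611 (-0.07) and without WT mouse M3578 (-0.04). The SE was larger than the difference itself. The libraries therefore do not check the genotype labels through Gdnf in the cortex.

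The receptors of GDNF were far above this floor. Ret, the signalling receptor, ran from 5.17 to 8.78 cpm in WT (median 6.70) and from 5.01 to 10.2 in HOM (median 5.98). Mouse M3607 stood above all other HOM mice and the rest lay within or just below the WT range. Ret had a log2 fold change of 0.01 (SE 0.132), with 2 of 8 HOM mice above the WT mean and an edgeR adjusted p of 0.985 (0.483 to 1 over 25 alternatives), and its direction turned to -0.11 without mouse M3607, -0.00 without M3687, -0.04 without M3578, -0.01 without M3587 and -0.03 without M3588. Gfra1, the co-receptor that binds GDNF, ran from 43.1 to 60.3 cpm in WT (median 58.7) and from 40.5 to 61.4 in HOM (median 51.6), and the groups covered nearly the same range. Its log2 fold change was -0.05 (SE 0.0891), with 3 of 8 HOM mice above the WT mean and an edgeR adjusted p of 0.842 (0.613 to 0.994 over 25 alternatives). Of 9 ligands and receptors of the GDNF family that were tested, 1 was higher at an unadjusted p under 0.05 and 0 lower. It was Gfra2, the co-receptor for neurturin, at 53.3 to 82.1 cpm in WT (median 73.9) and 70.2 to 102 in HOM (median 80.0), where the ranges overlapped. Gfra2 had a log2 fold change of 0.25 (SE 0.111), with 8 of 8 HOM mice above the WT mean and an edgeR adjusted p of 0.307 (0.0640 to 0.514 over 25 alternatives). It did not pass, while the likelihood ratio test called it.

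The libraries carried the markers of cortex. Slc17a7, the vesicular glutamate transporter of cortical projection neurons, ran from 1371 to 1617 cpm in WT PFC against 12.5 to 50.7 in WT striatum (STR) and 4.29 to 227 in WT substantia nigra (SN). Tbr1, a transcription factor of deep-layer neurons, was at 97.9 to 144 cpm in WT PFC and at most 6.6 cpm in WT striatum. The dopamine receptor gene Drd1, high in striatal projection neurons, was at 25.4 to 73.4 cpm in WT PFC and 277 to 357 in WT striatum. A summed list of 26 striatal projection neuron genes ran from 1884 to 3740 cpm in WT PFC and from 1920 to 3627 in HOM PFC. In WT striatum it was 13441 to 17536. WT mouse M3649 and HOM mouse M3607 were highest of their PFC groups. How much striatal tissue the PFC libraries held was not tested. Eomes, which marks mitral and tufted cells of the olfactory bulb, varied widely within both groups. It ran from 0.0892 to 16.9 cpm in WT and from 0.0787 to 15.1 in HOM, against at most 0.260 in WT striatum. Mice M3576, M3578 and M3677 of WT and mice M3607 and M3687 of HOM had at least 5 cpm, and so had 4 of the HET mice. The calls were therefore repeated without these 9 libraries, a choice made after seeing the data.

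Sod2 was higher and Rai14 lower in HOM than in WT, the only 2 of 14628 genes that passed (0.0137%). Rai14 (Entrez 75646, chr15:10568978-10714631) codes for an ankyrin-repeat protein of the actin cytoskeleton, and Sod2 (Entrez 20656, chr17:13007839-13018119) for the manganese superoxide dismutase of mitochondria. Rai14 ran from 20.3 to 25.0 cpm in WT (median 22.3) and from 12.2 to 18.2 cpm in HOM (median 16.1). Every HOM mouse lay below every WT mouse, with mouse M3607 lowest and mouse M3570 nearest to WT, and the HET median of 18.6 lay between. Rai14 fell by 0.49 on the log2 scale (SE 0.0797), with 8 of 8 HOM mice below the WT mean and an edgeR adjusted p of 0.0313 (0.000392 to 0.181 over 25 alternatives). Sod2 ran from 99.5 to 126 cpm in WT (median 106) and from 124 to 173 cpm in HOM (median 142), and its HET median was 123 cpm. The groups met only where WT mouse M3585 lay above HOM mouse M3570, while mouse M3606 was the highest of HOM. Sod2 rose by 0.44 on the log2 scale (SE 0.0784), with 8 of 8 HOM mice above the WT mean and an edgeR adjusted p of 0.0564 (7.95e-06 to 0.226 over 26 alternatives).

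Leaving out 1 mouse kept the log2 fold change between -0.52 and -0.43 for Rai14 and between 0.40 and 0.48 for Sod2, while the adjusted p, not far from the threshold, crossed it for several mice. In edgeR the adjusted p of Rai14, lower in 8 of 8 HOM mice by -0.49, rose above 0.1 without HOM mouse M3690 (0.1005) and without WT mouse M3587 (0.114), in a range of 0.000392 to 0.181 over the alternatives. Rai14 was not called in those 2 settings. The edgeR adjusted p of Sod2, higher in 8 of 8 HOM mice by 0.44, was 0.101 without mouse M3606, 0.124 without M3607, 0.142 without M3687, 0.110 without M3690 and 0.114 without M3749 of HOM. Among WT mice it was 0.177 without M3576, 0.164 without M3587, 0.226 without M3588 and 0.124 without M3649, in a range of 7.95e-06 to 0.226 over the alternatives. Without the 9 libraries rich in Eomes neither gene passed, with log2 fold changes of -0.45 for Rai14 and 0.43 for Sod2 and edgeR adjusted p of 0.181 and 0.191, at the top of or within the ranges above. A linear trend over 0, 1 and 2 cHyper alleles called the same 2 genes (0.0137%), Rai14 with -0.24 per allele (edgeR adjusted p 0.0191, 8 of 8 HOM mice below the WT mean) and Sod2 with 0.22 per allele (edgeR adjusted p 0.0339, 8 of 8 above). This trend shares its HOM and WT libraries with the comparison.

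**Figure D1:**
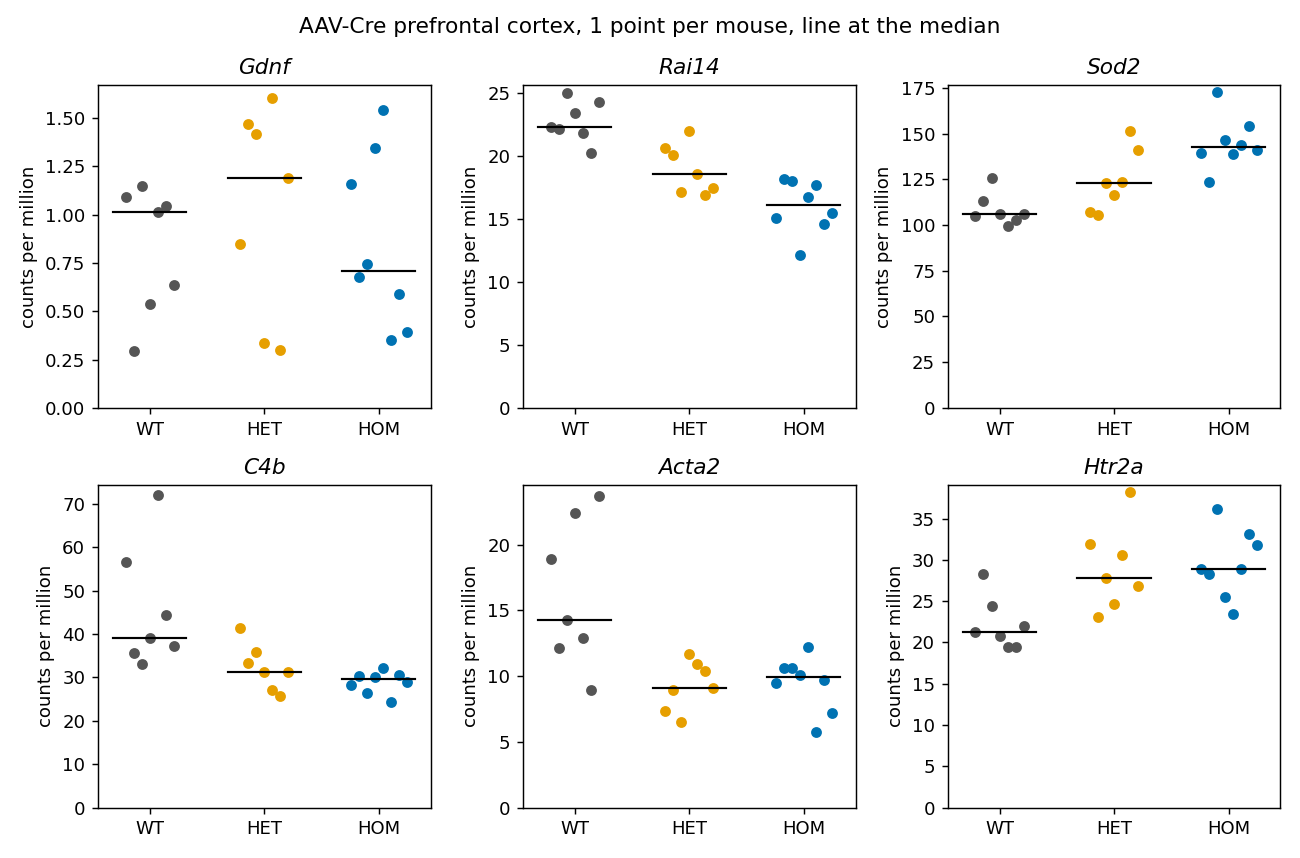
Levels in cpm of 6 genes in each PFC library by genotype, 1 point per mouse and a line at the median (Gdnf, Rai14, Sod2, C4b, Acta2 and Htr2a). Rai14 and C4b of all 8 HOM mice lie below all 7 WT mice, while Gdnf spreads over the same range in both groups.

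An unadjusted p under 0.05 was found for 1015 genes higher (6.94%) and 1059 lower (7.24%) in HOM, and an unadjusted p under 0.01 for 580 (3.96%). With the likelihood ratio test of edgeR 429 genes were called (2.93%), 196 higher and 233 lower. These counts and shares over all 14628 genes are the background for the list counts below. DESeq2, which gave an adjusted p to only 2717 of the 14628 genes, called 184 (1.26%), 133 higher and 51 lower. It called Sod2 and gave no adjusted p to Rai14, and its counts are no measure of the genes it left without one. With all regions of these mice in 1 fit 460 genes were called, 314 higher and 146 lower, but that fit also tested more genes (15442) and had several libraries of each mouse without a block. The balance of directions differed between these settings. Single mice moved the count too. It was 371 without WT mouse M3578 and 114 without HOM mouse M3570, 5 without WT mouse M3677 and 4 without HOM mouse M3567. It was 1 without HOM mice M3607, M3687 or M3749 or without WT mice M3576, M3588 or M3649, each left out alone. It was 0 by edgeR without HOM mouse M3690 (1644 genes at an unadjusted p under 0.05) and 0 without WT mouse M3587 (1611), settings in which no other tool was run. Without the libraries rich in Eomes edgeR called 4 genes, and 0 of them were Rai14 or Sod2.

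Those 4 genes, chosen after their values were seen, were Dhx34, Col6a4, Acvrl1 and Decr2. Col6a4, a collagen VI chain, ran from 1.21 to 15.9 cpm in WT and from 0.708 to 9.72 in HOM over all libraries, so the groups overlapped. In the reduced set Col6a4 had a log2 fold change of -2.51 (edgeR adjusted p 0.0339), Dhx34 -0.53 (0.0737), Acvrl1 -0.47 (0.0737) and Decr2 0.62 (0.0339). Over all libraries their edgeR adjusted p were 0.261, 0.359, 0.252 and 0.328. The number of mice in each direction in the reduced set was not computed.

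The groups did not overlap in 11 genes, 10 lower (0.0684%) and 1 higher (0.00684%). The 1 gene higher was Urb2, a ribosome biogenesis factor chosen after its values were seen, at 16.2 to 20.9 cpm in WT and 21.1 to 23.9 in HOM. Of the 10 lower, Rai14, 9230112J17Rik, C4b and Tbp were named by the rule for small p, while Gm15772, Gtf3c2, Ramp2, Rbm5, Stk38 and Tmem181b-ps were chosen after their values were seen. Stk38, a serine-threonine kinase, was at 44.2 to 52.2 cpm in WT and 34.1 to 44.1 in HOM, with the highest HOM mouse just under the lowest WT mouse. Rbm5, an RNA-binding splicing regulator, was at 176 to 189 cpm in WT and 151 to 170 in HOM. Of the 11 genes 4 lie on chromosome 17, which holds 723 of the genes tested. Tmem181b-ps is a pseudogene and Gm15772 may share reads with related copies, so their levels are uncertain. How the counting treated strand is not given in the sources used here, and reads of overlapping or antisense genes such as 9230112J17Rik cannot be told apart from their neighbours.

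C4b and other complement genes were lower in HOM cortex without passing the test. Complement proteins tag cells and synapses for removal, and in brain C4 and C1q are made largely by glia. C4b (Entrez 12268, chr17:34728381-34743897) ran from 33.1 to 72 cpm in WT (median 39.0) and from 24.3 to 32.1 in HOM (median 29.6). Mouse M3588 and mouse M3576 were the highest of WT, and even the lowest WT mouse lay above all HOM mice. C4b had a log2 fold change of -0.63 (SE 0.128), with 8 of 8 HOM mice below the WT mean and an edgeR adjusted p of 0.126 (4.70e-10 to 0.304 over 25 alternatives). C4b and its near copy C4a can exchange reads. Serping1, the inhibitor of C1, ran from 8.57 to 15.1 cpm in WT (median 12.1) and from 6.19 to 10.2 in HOM (median 7.77), with an overlap between the lowest WT and the highest HOM mice. Its log2 fold change was -0.53 (SE 0.121), with 8 of 8 HOM mice below the WT mean and an edgeR adjusted p of 0.141 (0.00732 to 0.374 over 25 alternatives). C3, the central component, was near the floor at 0.447 to 3.27 cpm in WT (median 1.06) and 0.193 to 1.10 in HOM (median 0.513), and WT mouse M3588 stood far above all other mice.

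Of 21 complement genes tested 9 were lower and 0 higher at an unadjusted p under 0.05 (42.9% lower, beside 7.24% of all genes). The likelihood ratio test called 6, all lower, beside 233 lower of all 14628. Their median log2 fold change was -0.32, with 19 lower and 2 higher, against a median of -0.00 over all genes tested, of which 7466 were lower and 7162 higher. The 9 are C4b, Serping1, C1qb, C4a, C3, Cfp, C1qc, Cd59a and C2. Of the 25 genes of the list 8 are also in another list. Leaving out single mice moved the median between -0.35 (without WT mouse M3649) and -0.28 (without WT mouse M3587), and it was -0.21 without the libraries rich in Eomes. The summed level of the list was 633 to 866 cpm in WT and 595 to 751 in HOM, highest in WT mouse M3588, and its most abundant gene was Sez6, a neuronal gene. Its median was 744 cpm in WT, 677 in HET and 648 in HOM.

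All 30 microglial markers tested had a negative log2 fold change, with a median of -0.22, and 18 were lower and 0 higher at an unadjusted p under 0.05 (60.0% lower, beside 7.24% of all genes). None of them was called by edgeR's quasi-likelihood test, the likelihood ratio test called 10 (0 higher and 10 lower, beside 196 and 233 of all 14628 genes), and DESeq2 gave an adjusted p to only 3 of the 30. P2ry12, the purinergic receptor of resting microglia, ran from 37.3 to 57.9 cpm in WT (median 48.8) and from 33.4 to 44.5 in HOM (median 40.5). Cx3cr1, the fractalkine receptor, ran from 58.5 to 85.2 cpm in WT (median 72.1) and from 50.9 to 77.8 in HOM (median 58.2). Both genes, chosen after their values were seen, overlapped between the groups, and 8 of 8 HOM mice for P2ry12 and 7 of 8 for Cx3cr1 lay below the WT mean. The HET medians were 39.7 cpm for P2ry12 and 60.1 for Cx3cr1, close to those of HOM. The summed microglial level ran from 1746 to 2581 cpm in WT (median 2113) and from 1559 to 2183 in HOM (median 1904), with Cst3 the most abundant gene and 0 members at 0 in any library. The HET median of 1851.5 cpm was below that of HOM, so the level did not follow the number of alleles. WT mouse M3588 was the highest, and WT mouse M3649 lay below the HOM median. Fewer cells of a type and less RNA per cell cannot be told apart in bulk tissue. Of the 30 genes 6 are also in another list. The median moved between -0.27 (without HOM mouse M3607) and -0.19 (without WT mouse M3588), and was -0.27 without the libraries rich in Eomes. Among 16 genes of activated microglia and macrophages 2 were lower and 0 higher at an unadjusted p under 0.05, with a median of -0.20, which was -0.11 without WT mouse M3576 and -0.07 without the libraries rich in Eomes. For 4 lymphocyte genes the median was -0.15, with 0 at an unadjusted p under 0.05. It ran from -0.23 without HOM mouse M3607 to -0.04 without WT mouse M3649. Without the libraries rich in Eomes the lymphocyte median was -0.48, with 2 of the 4 lower and 0 higher at an unadjusted p under 0.05.

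Among genes of the interferon response and of antigen presentation the quasi-likelihood test called 0. Of 46 interferon-induced genes tested 13 were lower and 0 higher at an unadjusted p under 0.05 (28.3% lower, beside 7.24% of all genes), with a median log2 fold change of -0.27 and 41 lower. Those of smallest p were Lgals3bp, Ifi27 and Gbp7, and the widest difference was that of Oas2 (-0.85), an antiviral sensor. The likelihood ratio test called 5, all lower, beside 233 lower of all 14628 genes, and DESeq2 gave an adjusted p to 0 of the 46. The median was -0.18 without WT mouse M3588, which had the highest summed level (511 cpm, against 328 for the lowest WT mouse and 305 to 382 in HOM). The summed level had a median of 373 cpm in WT, 348 in HET and 342 in HOM. Xaf1, an interferon-induced gene, ran from 4.31 to 30.6 cpm in WT and from 2.46 to 24.5 in HOM. It was at most 4.79 cpm in WT mice M3576 and M3677 and at most 3.63 in HOM mice M3606, M3607 and M3687. The other WT and HOM mice had at least 11.4 cpm, and the same mice were lowest for Xaf1 in striatum and substantia nigra. Of the 50 genes of the list 3 are also in another list. Class I presentation had 6 of 19 genes lower (31.6%, beside 7.24% of all genes) and 0 higher at an unadjusted p under 0.05 (median -0.14, and -0.22 without HOM mouse M3611), and the likelihood ratio test called 1 higher and 2 lower. H2-D1, a class I heavy chain, ran from 16.4 to 41.1 cpm in WT (median 31.1) and from 15.2 to 29.7 in HOM (median 18.1), and 7 of the HOM mice lay below all WT mice but mouse M3585. H2-D1 had a log2 fold change of -0.64 (SE 0.213), with 8 of 8 HOM mice below the WT mean and an edgeR adjusted p of 0.232 (1.19e-08 to 0.442 over 25 alternatives). Of 7 class II genes 3 were lower and 0 higher at an unadjusted p under 0.05 (median -0.53, and -0.35 without WT mouse M3649), H2-Ab1, H2-Ob and Cd74. H2 genes resemble each other, and their reads can be split between copies. Of the 22 class I genes 1 is in another list. For NF-kB and cytokine response genes 1 of 26 was lower and 0 higher at an unadjusted p under 0.05 (median -0.09, and -0.05 without WT mouse M3588).

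Among genes of vessel walls the quasi-likelihood test called 0, of 25 mural and 22 endothelial genes. Of the 25 markers of mural cells and fibroblasts 14 were lower and 0 higher at an unadjusted p under 0.05 (56.0% lower, beside 7.24% of all genes), with a median log2 fold change of -0.20. The likelihood ratio test called 6, all lower, beside 233 lower of all 14628. Acta2, the smooth muscle actin chosen after its values were seen, ran from 8.94 to 23.7 cpm in WT (median 14.3) and from 5.77 to 12.2 in HOM (median 9.91). WT mice M3677 and M3587 were highest, WT mice M3649 and M3578 lay within the HOM range, and the HET median was 9.08. Acta2 had a log2 fold change of -0.75 (SE 0.179), with 8 of 8 HOM mice below the WT mean and an edgeR adjusted p of 0.141 (3.32e-07 to 0.459 over 25 alternatives). Myh11, smooth muscle myosin, was at 9.31 to 17.4 cpm in WT and 5.35 to 10.9 in HOM, and Smtn, smoothelin, at 7.87 to 11.2 and 5.40 to 8.10, where 3 WT mice of Myh11 and 1 of Smtn lay within the HOM range. Of the 22 endothelial genes 9 were lower and 0 higher at an unadjusted p under 0.05 (40.9% lower, beside 7.24% of all genes), with a negative log2 fold change in all 22 and a median of -0.19, while the likelihood ratio test called 0 and DESeq2 gave an adjusted p to only 2 of the 22. The summed level of the mural list ran from 1271 to 1848 cpm in WT and from 1136 to 1389 in HOM, with Ptgds the most abundant gene, and that of the endothelial list from 871 to 1127 and from 840 to 982, with Bsg the most abundant. Medians of the mural list were 1435 cpm in WT, 1214 in HET and 1268 in HOM. Those of the endothelial list were 1014, 906 and 904 in that order.

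Of 24 astrocyte markers the quasi-likelihood test called 0. All 24 had a negative log2 fold change (median -0.17), with 11 lower and 0 higher at an unadjusted p under 0.05 (45.8% lower, beside 7.24% of all genes). Of the 24 the likelihood ratio test called 1 and DESeq2, with an adjusted p for 14 of them, called 4. Their summed level was 9446 to 11803 cpm in WT and 8593 to 10408 in HOM, with Slc1a2, the main glial glutamate transporter, the most abundant gene. Of the HOM and WT mice, HOM mouse M3567 was lowest and WT mouse M3588 highest. The median of the summed level was 10439 cpm in WT, 9001 in HET and 9204 in HOM. Of 22 reactive astrocyte genes 6 were lower and 0 higher at an unadjusted p under 0.05 (median -0.20, and -0.12 without WT mouse M3588). Cp, the copper-carrying ferroxidase ceruloplasmin, ran from 20.6 to 27.2 cpm in WT (median 25.5) and from 13.9 to 21.3 in HOM (median 18.4), and only HOM mouse M3690 lay above the lowest WT mice. Cp had a log2 fold change of -0.43 (SE 0.0911), with 8 of 8 HOM mice below the WT mean and an edgeR adjusted p of 0.141 (0.00231 to 0.322 over 25 alternatives). Oligodendrocyte precursors had 7 of 15 genes lower and 0 higher at an unadjusted p under 0.05 (median -0.17). Mature oligodendrocytes had 3 of 30 lower and 0 higher at that p, with a median of -0.02 (0.01 without WT mouse M3588). Ependymal genes were lower in 2 of 11 and higher in 0 at an unadjusted p under 0.05 (median -0.23, and -0.11 without WT mouse M3588).

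**Figure D2:**
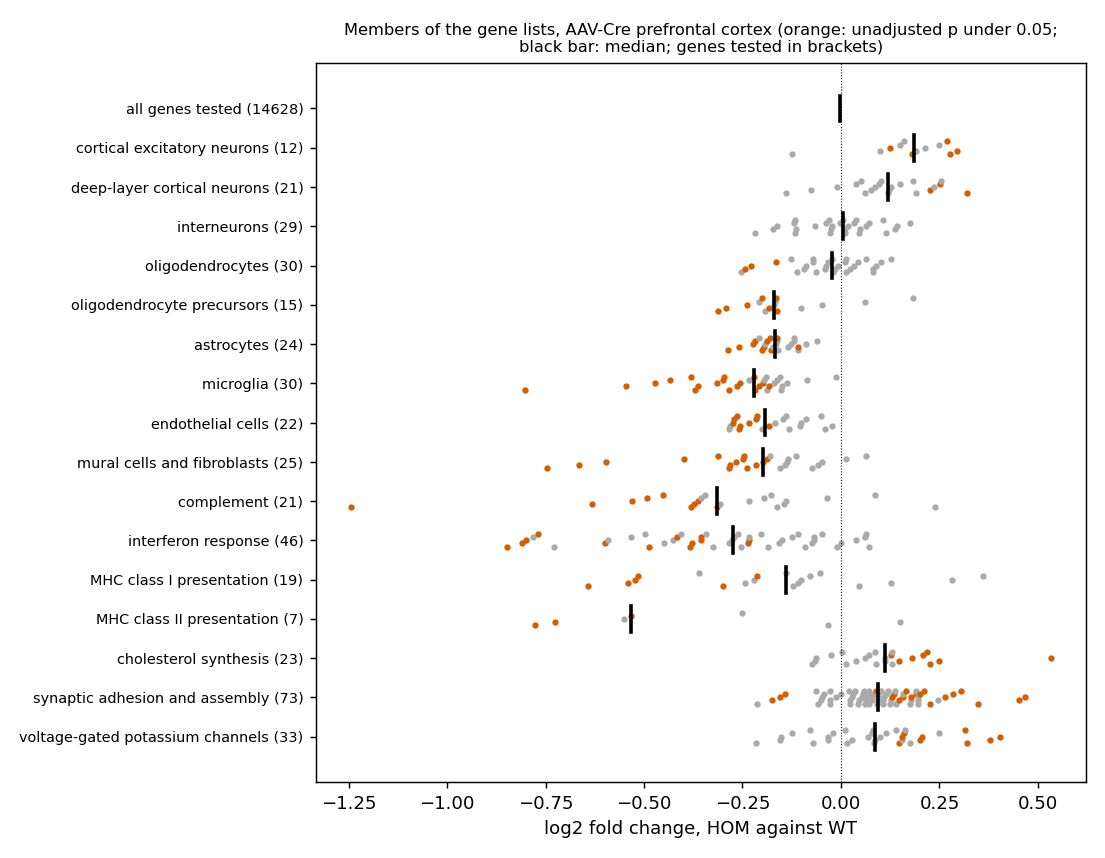
Log2 fold change, HOM against WT, of the members of 16 gene lists in PFC, with an unadjusted p under 0.05 in orange, the median as a black bar and the number of genes tested in brackets. Every point of the microglia, astrocyte and endothelial lists lies below 0, whereas the median over all 14628 genes is at -0.00.

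Among 12 markers of cortical excitatory neurons the quasi-likelihood test called 0. A positive log2 fold change was found in 11 of the 12, though not in the most abundant one, with a median of 0.19. At an unadjusted p under 0.05, 5 were higher and 0 lower (Sv2b, Mef2c, Tbr1, Slc17a7 and Nptx1). The likelihood ratio test called 4 and DESeq2, with an adjusted p for 8 of the 12, called 1, all higher. Slc17a7 ran from 1371 to 1617 cpm in WT (median 1417) and from 1425 to 1751 in HOM (median 1600), with 7 of 8 HOM mice above the WT mean and wide overlap. Slc17a7 had a log2 fold change of 0.13 (SE 0.0515) and an edgeR adjusted p of 0.281 (0.132 to 0.950 over 26 alternatives). The summed level of the list was alike in both groups, 8484 to 10276 cpm in WT and 8584 to 10202 in HOM, and its most abundant gene Camk2a was lower, with a median of 5265 cpm in WT and 4619 in HOM (log2 fold change -0.12). At an unadjusted p under 0.05 deep-layer neurons had 3 of 21 genes higher and 0 lower (median 0.12). Upper-layer neurons had 0 of 14 in either direction at that p, with 8 of the 14 negative by sign (median -0.04). Interneurons had 0 of 29 at that p (median 0.00, and -0.03 without WT mouse M3578). The striatal list had 0 of 26 at an unadjusted p under 0.05 with a median of -0.16, between -0.30 without HOM mouse M3607 and -0.03 without WT mouse M3649. Without the libraries rich in Eomes 18 of the 26 striatal genes were lower and 0 higher at an unadjusted p under 0.05, with a median of -0.48. Levels of glial, vascular and neuronal genes are shares of the same library, and the part of tissue composition in any of these differences was not tested.

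In lists of synapses, channels and transmitter receptors the quasi-likelihood test called 0 genes. Of 73 genes of synaptic adhesion and assembly 17 were higher and 3 lower at an unadjusted p under 0.05 (23.3% higher and 4.11% lower, beside 6.94% and 7.24% of all genes), and 60 had a positive log2 fold change (median 0.09). Il1rapl1, a synaptic adhesion protein, ran from 4.18 to 5.58 cpm in WT (median 4.96) and from 5.49 to 7.93 in HOM (median 6.91), with the lowest HOM mouse just inside the WT range. Il1rapl1 had a log2 fold change of 0.47 (SE 0.122), with 8 of 8 HOM mice above the WT mean and an edgeR adjusted p of 0.170 (0.0732 to 0.361 over 25 alternatives). The lower members include Sparcl1 and Sparc, which astrocytes and other non-neuronal cells secrete. Of 33 voltage-gated potassium channel genes 9 were higher (27.3%, beside 6.94% of all genes) and 0 lower at an unadjusted p under 0.05 (median 0.09, and 0.13 without HOM mouse M3611). Kcnq3, a subunit of the M-current channel, was at 22.5 to 34.3 cpm in WT (median 29.1) and 27.5 to 43.3 in HOM (median 36.8). Of 29 genes of GABA and histamine signalling 21 had a positive log2 fold change (median 0.08). Of 30 glutamate receptor and transporter genes 4 were higher and 2 lower at an unadjusted p under 0.05 (median 0.05).

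Htr2a, the serotonin 2A receptor of cortical projection neurons, ran from 19.4 to 28.3 cpm in WT (median 21.2) and from 23.5 to 36.2 in HOM (median 28.9). WT mouse M3578 reached the middle of the HOM range, the other 6 WT mice lay in its lowest part or below it, and the HET median was 27.8. Htr2a had a log2 fold change of 0.43 (SE 0.111), with 8 of 8 HOM mice above the WT mean and an edgeR adjusted p of 0.166 (0.00118 to 0.384 over 25 alternatives). Of 12 serotonin receptor genes 2 were higher and 0 lower at an unadjusted p under 0.05 (median 0.12), Htr2a and Htr7. Figures of the study name Btg2, Npas4, Nr4a1, Reln, Htr2a, Xaf1, Arpp19, C3, Adora2a, Drd1, Drd2 and Th for AAV-Cre PFC, and as they were picked from these samples their counts are not independent. Of these 12 genes 2 (Htr2a and Arpp19) were higher and 1 (C3) lower at an unadjusted p under 0.05, with a median of -0.25 (-0.14 without WT mouse M3649). By the likelihood ratio test 2 of them were called higher and 5 lower. Th, the enzyme that starts dopamine synthesis, ran from 2.59 to 36.9 cpm in WT and from 2.28 to 28.8 in HOM, highest in mice that also had high Eomes. The 12 genes of dopamine synthesis and handling had a median of -0.07, which turned to 0.10 without WT mouse M3576. Of 22 genes of dopamine receptors and their signalling 0 had an unadjusted p under 0.05 (median -0.05, between -0.09 without WT mouse M3578 and -0.00 without WT mouse M3649), while the likelihood ratio test called 2, both lower, beside 233 lower of all 14628 genes. Without the libraries rich in Eomes 8 of these were lower and 2 higher at an unadjusted p under 0.05, with a median of -0.18. Of 7 midbrain dopamine neuron markers 0 had an unadjusted p under 0.05 (median -0.04), and the median ran from -0.11 without HOM mouse M3607 to 0.10 without WT mouse M3576. Drd2 ran from 12.3 to 47.1 cpm in WT and from 10.6 to 44.1 in HOM, and Adora2a, a receptor for adenosine, from 16.1 to 75.0 and from 18.1 to 74.9. WT striatum had 178 to 238 cpm of Drd2 and 361 to 499 of Adora2a.

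Of 39 immediate-early genes, which neuronal activity induces, 1 (Ier5) was higher and 0 lower at an unadjusted p under 0.05 (median -0.10), while the likelihood ratio test called 1 higher and 4 lower. The median ran from -0.16 without WT mouse M3649 to -0.05 without WT mouse M3588. Npas4 ran from 13.6 to 78.0 cpm in WT (median 40.7) and from 11.3 to 56.4 in HOM (median 25.1), Nr4a1 from 52.4 to 150 and from 38.7 to 125, and Btg2 from 13.6 to 42.7 and from 12.5 to 37.9. Spread between mice of 1 group was several-fold in each of the 3 genes, and the groups overlapped. The reelin gene Reln ran from 90.1 to 167 cpm in WT and from 116 to 184 in HOM. Arpp19, a phosphatase inhibitor, ran from 271 to 378 cpm in WT (median 352) and from 308 to 493 in HOM (median 418), with 7 of 8 HOM mice above the WT mean.

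Of 21 genes for enzymes that dispose of superoxide and peroxide 2 were higher (Sod2 and Prdx3) and 2 lower (Cat at -0.14 and Sod3 at -0.63) at an unadjusted p under 0.05, with a median of -0.03. The likelihood ratio test called Sod2 higher and Sod3 lower. Sod1, the cytosolic dismutase, ran from 136 to 160 cpm in WT (median 154) and from 130 to 179 in HOM (median 144), and the groups overlapped. Of 27 glutathione and NRF2 target genes 1 was higher and 4 lower at an unadjusted p under 0.05 (median -0.01, and 0.01 without WT mouse M3585). Of 27 genes of metallothioneins and copper handling 1 was higher and 3 lower at that p (median 0.01, and -0.03 without WT mouse M3578). Of 75 genes of the respiratory chain and ATP synthase 9 were higher and 0 lower at an unadjusted p under 0.05 (12.0% higher, beside 6.94% of all genes, median 0.02). DESeq2, with an adjusted p for 37 of them, called 6, all higher, while the likelihood ratio test called 0. Without the libraries rich in Eomes 7 were higher and 7 lower at an unadjusted p under 0.05. The median turned to -0.01 there and without HOM mouse M3607. Cox5a, a subunit of cytochrome oxidase, was at 85.4 to 100.2 cpm in WT and 89.0 to 116 in HOM, where the ranges overlapped.

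Cholesterol synthesis had 8 of 23 genes higher (34.8%, beside 6.94% of all genes) and 0 lower at an unadjusted p under 0.05 (median 0.11), and 19 with a positive log2 fold change. Sqle, squalene epoxidase, ran from 55.2 to 65.4 cpm in WT (median 61.3) and from 61.6 to 76.6 in HOM (median 69.5). Only HOM mouse M3570 lay within the WT range. Sqle had a log2 fold change of 0.21 (SE 0.05), with 8 of 8 HOM mice above the WT mean and an edgeR adjusted p of 0.141 (0.0613 to 0.343 over 25 alternatives). Idi1, Acat2, Msmo1, Insig1 and Mvd are also among the 8. The likelihood ratio test called 1 of the 23 and DESeq2, with an adjusted p for 4 of them, called 2, all higher. At an unadjusted p under 0.05, 1 of 78 cytosolic ribosomal protein genes was higher and 11 lower (median -0.10). Of 28 heat shock and ER stress genes 2 were higher and 1 lower at that p (median 0.06, and 0.03 without HOM mouse M3749). Of 21 glucocorticoid-responsive genes 1 was higher and 3 lower at that p (median -0.08, and -0.13 without WT mouse M3585). Of 18 circadian clock genes 0 reached that p in either direction (median 0.09, and 0.04 without HOM mouse M3690). The likelihood ratio test called 1 of these 18 higher. Among 19 olfactory bulb and immature neuron genes 2 were higher and 0 lower at an unadjusted p under 0.05. Their median was -0.08, between -0.33 without HOM mouse M3687 and 0.16 without WT mouse M3576. Of 8 choroid plexus genes 0 had an unadjusted p under 0.05 (median -0.06, between -0.12 without WT mouse M3677 and 0.02 without WT mouse M3588), and the single blood gene tested was at 0.03.

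Leaving out the libraries rich in Eomes moved further medians by more than 1.5 times or across 0, with 1373 genes higher and 1291 lower at an unadjusted p under 0.05 in that set of 14428. Lower medians there were -0.27 for oligodendrocyte precursors, -0.08 for oligodendrocytes, -0.25 for class I presentation, -0.07 for the GDNF family (8 of 9 negative and 0 at an unadjusted p under 0.05), -0.04 for metallothioneins and copper handling, -0.01 for interneurons and -0.03 for the blood gene. Higher ones were 0.15 for circadian clock genes (4 higher and 1 lower at an unadjusted p under 0.05) and 0.13 for GABA and histamine signalling. Further higher medians were 0.10 for olfactory bulb genes, 0.02 for dopamine synthesis, 0.03 for the genes near Gdnf, -0.06 for immediate-early genes, -0.03 for glucocorticoid-responsive genes and -0.02 for midbrain dopamine neurons. The cause of these moves was not tested.

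The genes of smallest p outside these groups had adjusted p between 0.123 and 0.141 in edgeR's quasi-likelihood test, which called none of them. Over the alternatives their adjusted p ran from 1.21e-05 (9230112J17Rik) to 0.346 (Acvr1b). Of the 13 genes named here the likelihood ratio test called all but Tbp and Ran, and DESeq2 called Smpd4, Ndfip1, Acvr1b, Ran, Atp6v1h and Pnmal1. Among those lower, 9230112J17Rik ran from 1.12 to 1.97 cpm in WT (median 1.59) and from 0.159 to 0.991 in HOM (median 0.508) without overlap. Ano1, a calcium-activated chloride channel, was at 4.29 to 7.39 cpm in WT and 3.24 to 4.74 in HOM, where only WT mouse M3578 lay within the HOM range. Mov10, an RNA helicase that restrains retroelements, was at 11.2 to 18.2 cpm in WT and 7.47 to 13.3 in HOM. Smpd4, a sphingomyelinase, was at 121 to 156 and 101 to 134, and Tbp, the TATA-binding protein, at 19.2 to 24.8 and 15.6 to 18.7. Ranges of Mov10 and Smpd4 overlapped and those of Tbp did not. Among those higher, Ndfip1, an adaptor of ubiquitin ligases, ran from 180 to 243 cpm in WT (median 196) and from 215 to 291 in HOM (median 263). Acvr1b, an activin receptor, was at 95.9 to 112 cpm in WT and 107 to 138 in HOM, Slc17a5, the lysosomal sialic acid transporter, at 22 to 24.2 and 22.7 to 32.2, and Ran, the GTPase of nuclear transport, at 94.1 to 105 and 102 to 129. Atp6v1h, a subunit of the vacuolar proton pump, was at 125 to 149 and 138 to 177 cpm. Pnmal1, Zfp677 and Sgcd were higher too, with log2 fold changes of 0.27, 0.78 and 0.80.

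Rai14 lies 2.76 Mb from Gdnf on chromosome 15, where the edited allele sits. Of 49 genes tested within 10 Mb of Gdnf 8 were higher (16.3%) and 9 lower (18.4%) at an unadjusted p under 0.05, beside 6.94% and 7.24% of all genes, with 1 called by the quasi-likelihood test and a median of 0.01 (-0.02 without HOM mouse M3690). By the likelihood ratio test 5 were called higher and 1 lower, and by DESeq2, with an adjusted p for 8 of them, 2 higher and 1 lower. Fyb, an adaptor of immune cells, was at 5.46 to 9.76 cpm in WT and 4.37 to 6.45 in HOM, and Rxfp3, a relaxin-family receptor, at 1.15 to 2.38 and 1.99 to 4.22, both chosen after their values were seen and both overlapping. Mtmr12, of the myotubularin family, and 6030458C11Rik were higher, with log2 fold changes of 0.29 and 0.26. In windows of 10 Mb with at least 20 genes tested, 229 in all, the share of genes at an unadjusted p under 0.01 was 3.96% overall. It was largest in chr17:10000001-20000000, which holds Sod2 and Tbp, with 10 of 49 (20.4%), and next in chr15:1-10000000, which holds Gdnf, with 5 of 32 (15.6%, Fyb, Dab2, Fbxo4, Selenop and Oxct1). Rai14 starts in chr15:10000001-20000000, which had fewer than 20 genes tested and was not among these windows. The window chr17:30000001-40000000 of the major histocompatibility complex, with C4b, C4a, H2-D1 and H2-Ab1, ranked 23rd with 15 of 171 (8.77%), 14 of them lower. The windows were looked at after seeing the values. Differences of strain origin between the genotypes near the edited allele or elsewhere were not tested.

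Whether HOM and WT differ otherwise in cortex than in the other regions of the same mice was tested by the interaction. Against striatum edgeR called 0 of 15075 genes, with 631 at an unadjusted p under 0.05, and with mouse as a replicate block 0 with 1363, while the likelihood ratio test called 49. Against substantia nigra it called 0 of 15199, with 1936 at an unadjusted p under 0.05, and with the block 0 with 2163, while the likelihood ratio test called 287. Rai14 differed from striatum by -0.26 and Sod2 by 0.25 in log2 fold change (edgeR adjusted p 0.995 for each, with 8 of 8 HOM mice on 1 side of the WT mean in cortex). No region was thus shown to differ for either gene. Sod2 medians were 122 cpm in WT and 143 in HOM striatum, and 161 and 181 in substantia nigra. Those of Rai14 were 6.23 and 6.11 in striatum, and 9.16 and 8.44 in substantia nigra. The groups overlapped in each case. Tbp did not overlap in substantia nigra (19.9 to 22.8 cpm in WT, 17.3 to 19.5 in HOM) but did in striatum. The median log2 fold change of microglial genes was -0.19 in striatum, -0.06 in substantia nigra and -0.03 in the PFC of Nestin-Cre mice. Complement genes gave -0.22, 0.01 and -0.09, interferon genes -0.21, 0.03 and -0.00, and mural genes -0.07, 0.29 and -0.01 in that order. Cholesterol synthesis genes gave 0.12, 0.07 and -0.01. These medians were not tested against each other, and the regions come from the same mice.

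Against the PFC of Gdnf cHyper;Nestin-Cre mice, in which Cre acts from mid-gestation and which were other animals, 2 months old by their labels, the effect differed in 523 of 14757 genes (3.54%), 147 higher and 376 lower in AAV-Cre mice. Age, route of Cre and cohort differ together between the models and cannot be told apart. Mov10 showed the smallest adjusted p among the genes named, with -0.50 in AAV-Cre and 0.57 in Nestin-Cre mice, a difference of -1.06 (edgeR adjusted p 0.00116, 8 of 8 HOM mice of the AAV-Cre model below the WT mean). Rai14 differed by -0.58 (adjusted p 0.0136, 8 of 8 below, edgeR) and Sod2 by 0.44 (adjusted p 0.0518, 8 of 8 above, edgeR), with log2 fold changes of 0.10 and 0.00 in Nestin-Cre mice. Htr2a differed by 0.74 (edgeR adjusted p 0.0281, 8 of 8 above), from -0.31 in Nestin-Cre mice. Without the Nestin-Cre mouse whose genotype label differs between its regions 516 were called, 108 higher and 408 lower, with 455 shared. The likelihood ratio test called 620, 224 higher and 396 lower, with 288 shared.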

How the data were processed

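The count table deposited by the authors holds whole reads per gene for 24412 genes (6 without a symbol) and 121 libraries, with 0 value columns left unused. Stranded mRNA libraries were aligned to mm10 with STAR 2.5.2b and counted in exons with featureCounts 1.5.1. For base calling the submitters' processing notes name bcl2fastq 2.20.0.422 and the methods name CASAVA. The strand setting of the counting is not given in the sources used here. Groups, and mouse numbers as replicates, came from the labels, and each library was 1 mouse. Pairs of libraries of a group differed well beyond sampling noise (chi-square per degree of freedom at least 4.72).

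Counts were analysed in R 4.3.3 with edgeR 4.0.16 (TMM, trended dispersion, glmQLFit in legacy mode and glmQLFTest), on genes reaching 1 cpm in 3 or more libraries, with 3 genotypes in 1 fit. The SE is the size of the log2 fold change divided by the root of F. DESeq2 1.42.0, limma 3.58.1, python 3.11.15 and matplotlib 3.10.9 were also used. The methods were tested on simulated data.

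Named genes are those called, the 12 of smallest p in each direction with a mean of at least 1 cpm, Gdnf, Ret and Gfra1, 12 genes printed in the figures of the study for AAV-Cre PFC, and from each pathway list the member of smallest p in each direction and the most abundant one, both per kb and by cpm. This gave 91 genes, and 15 others were chosen after their values were seen. The comparison, its members and the 44 gene lists (43 written by hand) were chosen with earlier results of these data known. Lists are described by counts and medians without a test. Results for some genes are not reported here.

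Alternatives were the likelihood ratio test, current and robust quasi-likelihood, DESeq2, its size factors in edgeR, no filter, 1 cpm in at least 7 libraries, only HOM and WT, all regions in 1 fit, an adjusted p under 0.05 and each mouse left out in turn. Those chosen after seeing the data left out 9 libraries with at least 5 cpm Eomes, and the HET library of highest Ttr. Regions are paired by mouse, since the labels give the same numbers. With group means removed and a prior count of 2, PFC and striatum of the same mouse correlated across genes at a median r of 0.255 over 21 mice (0.0838 to 0.351), against -0.0114 between different mice. PFC and substantia nigra gave 0.179 over 22 mice (0.0764 to 0.386), against -0.0126.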

Additional observations from a re-analysis of the deposited data

Results flagged for a closer look

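Of 250 groups of 7 or 8 libraries looked at, 10 had a mouse far from the others, and chance gives about 1 in 20 groups. In HOM these were Ret in mouse M3607 (10.2 cpm, others up to 7.11), Ramp2 in mouse M3607 (7.58 cpm, others from 9.21), H2-D1 in mouse M3690 (29.7 cpm, others up to 19.6) and H2-DMb1 in mouse M3749 (0.157 cpm, others from 1.18). In WT they were C3 in mouse M3588 (3.27 cpm, others up to 1.08), Th in mouse M3576 (36.9 cpm, others up to 14.5), Omp in mouse M3576 (12.8 cpm, others up to 2.47), Qdpr in mouse M3677 (130.2 cpm, others from 154) and Sod1 in mouse M3578 (136 cpm, others from 151). The summed olfactory bulb and immature neuron list of WT mouse M3576 was 1005 cpm, against up to 684 in the other WT mice.

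Of the 106 genes named, 13 had an HOM effect that differed between the PFC of AAV-Cre and of Nestin-Cre mice by the interaction test. Over all genes this held for 523 of 14757 (3.54%), and a larger share is built in here, since many named genes were chosen for a small p in the same AAV-Cre libraries. The differences of log2 fold change, AAV-Cre minus Nestin-Cre, were positive for Sod2 (0.44), Pnmal1 (0.35), Sqle (0.31), 6030458C11Rik (0.28), Atp6v1h (0.32), Htr2a (0.74) and Atp5b (0.20). They were negative for Rai14 (-0.58), Mov10 (-1.06), Smpd4 (-0.60), Gm15772 (-0.91), Rbm5 (-0.35) and Stk38 (-0.52).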

How the results depend on the processing

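The count of 2 genes called became 429 with the likelihood ratio test, 184 with DESeq2, 460 with all regions in 1 fit, 4 with current quasi-likelihood, 4 without the libraries rich in Eomes and 1 at an adjusted p under 0.05. Leaving out 1 mouse gave 0 to 371. The trend over alleles, with 2 called, gave 370 with the likelihood ratio test and 130 with DESeq2. The interaction with striatum went from 0 to 49 and that with substantia nigra from 0 to 287 by the likelihood ratio test. The replicate block, in which the regions were compared within each mouse, kept 0 called in both and changed no call. Of 106 named genes 13 changed direction under some alternative, and 0 of these were called. Without the libraries rich in Eomes, log2 fold changes turned to -0.068 for Gdnf, -0.19 for Ret, 0.54 for Th, -0.053 for Sdc3, -0.024 for Cebpd, 0.023 for Stat3, -0.071 for H2-DMb1 and 0.96 for Eomes. Stat3 also turned to 0.0032 with size factors of DESeq2, 0.0030 with 1 cpm in at least 7 libraries, 0.0040 with only HOM and WT and 0.0062 with all regions. Over single mice left out the log2 fold changes ran from -0.067 to 0.24 for Gdnf, -0.11 to 0.092 for Ret, -0.20 to 0.11 for Drd1, -0.45 to 0.55 for Th, -0.018 to 0.032 for Sdc3, -0.052 to 0.14 for Egr1, -0.034 to 0.046 for Stat3, -0.076 to 0.0097 for H2-DMa, -0.088 to 0.0096 for Sez6, -1.22 to 1.22 for Omp and -0.79 to 0.58 for Eomes. The median of the dopamine synthesis list, -0.07, ran from -0.08 to 0.10. The cause was not tested. Depth limits Gdnf, C3 and H2-DMb1, each near 1 cpm, while Omp ran from 0 to 12.8 cpm in WT and from 0 to 7.46 in HOM.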
